A study of Mus musculus with 18 samples.

Results

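The fatty acid oxidation genes and the target genes of the peroxisome proliferator-activated receptors (PPARs) were examined in whole mouse colon. The set held 30 genes listed by function. The list uses no measured value, but it was drawn up with earlier results of these data known. By role it was made of 4 genes of the carnitine shuttle and the fuel gate in front of it, 8 genes of the mitochondrial beta-oxidation cycle, 4 auxiliary isomerases and reductases, 3 genes of the electron transfer flavoprotein system, 2 peroxisomal genes, 1 ketone body gene, 3 PPAR factors and 5 genes of lipid handling. All 30 were among the 45777 gene symbols of the deposited count table, and all 30 were among the 18848 genes with enough counts to be tested.

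Long-chain fatty acids enter mitochondria as carnitine esters and are shortened in a repeated cycle of dehydrogenation, hydration, a second dehydrogenation and thiolysis, which yields acetyl-CoA and electrons for the respiratory chain. PPARs are nuclear receptors that bind fatty acids and, paired with retinoid X receptors, act on many genes of this pathway. Colonocytes, the absorptive cells of the colon, are known for using short-chain fatty acids from bacterial fermentation as fuel, a supply that animals without microbes lack.

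All mice were germ-free C57BL/6J males aged 8 weeks, so the controls also had no microbes. They were wild type (WT), Lao1-/- (LAO1KO) or Lao1-/- Il4i1-/- (DKO), where Lao1 and Il4i1 encode secreted oxidases of L-amino acids. Each genotype drank sterile water or 2.5% dextran sulfate sodium (DSS), a sulfated polysaccharide used to injure the lining of the colon, over 24 hours. The 6 groups held 3 biological replicates each, lettered A to C, and the comparisons ask how DSS, the genotype and their combination changed the transcript levels.

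The 18 libraries held 26003174 to 36553193 counts. Lao1 had 0 to 4 counts per library in WT and 0 to 10 in LAO1KO and in DKO, too few to check that label. Il4i1, summed with its copy Il4i1b, was at 0 in 5 of the 6 DKO libraries and had 12 to 66 counts in the WT and LAO1KO libraries. The sixth, the library labelled DKO DSS B, had 12 counts (0.370 CPM of all counts), as many as LAO1KO DSS C (0.461 CPM). It was kept in its labelled group, and without it 0 members were called in each of the 4 comparisons that single out DKO and use it, and 6 under DSS averaged over the genotypes. The tissue is colon by the labels. Of the markers, 10 of 10 epithelial and 9 of 10 colonocyte ones stood at 10 CPM or more in every library. CPM here are read counts scaled to a common library total by the trimmed-mean method. Aqp8 was the colonocyte marker that did not, with a median of 0.803 CPM. Of 12 small-intestine absorptive markers 4 also stood at 10 CPM or more in every library. The libraries labelled WT water B and LAO1KO water A stood apart from the rest in overall expression, so several counts of called genes are also given without them. Mitochondrially encoded mRNAs took 6.89 to 20.7% of the counts under water and 14.3 to 44.9% under DSS, with the highest share in WT DSS C. An index of circadian clock genes (on the log2 CPM scale, the mean of 10 genes in phase with Dbp less the mean of 5 in phase with Arntl) ran from -1.97 to -0.10 under water and from 0.50 to 1.93 under DSS without overlap. The labels give no time of collection, so clock phase and DSS cannot be told apart. In whole tissue, fewer cells of a type and less RNA per cell cannot be told apart either.

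The members differed widely in level. Scaled by the length of each gene's longest basic transcript, Fabp2, an intestinal fatty acid binding protein, was highest with a mean of 982 CPM per kb over the 18 libraries. It was followed by Etfb (237 CPM per kb), Hadh (211 CPM per kb) and Ech1 (198 CPM per kb). The lowest were Pdk4 (8.37 CPM per kb), Cd36 (8.35 CPM per kb), the coactivator gene Ppargc1a (5.28 CPM per kb), Angptl4 (3.80 CPM per kb) and Fabp1 (0.969 CPM per kb). Fabp1, the liver-type fatty acid binding protein, had only 4 to 47 counts per library, so its differences carry a large counting error. Within a gene, the spread over libraries was widest for Cd36, whose highest library was 20.2 times its lowest, and for Fabp1 (14.2 times), and narrowest for Eci2. The carnitine shuttle, the beta-oxidation cycle and the flavoprotein genes lay between 27.3 and 237 CPM per kb except Pdk4, the gate gene.

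**Figure D1:**
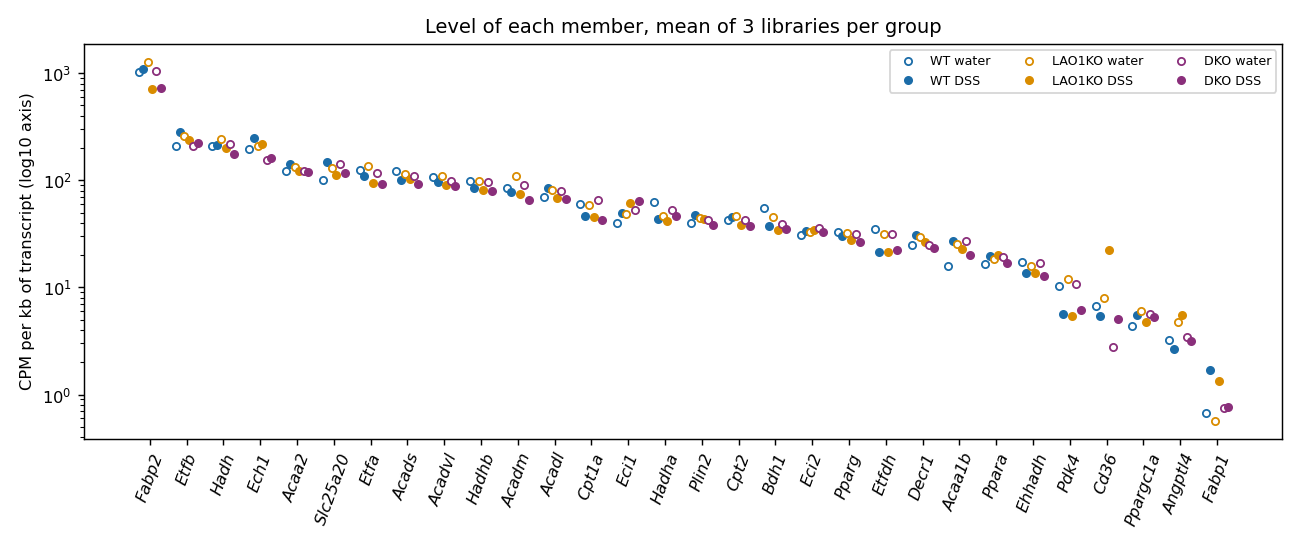
Mean level of each member in the 6 groups, in CPM per kb of transcript on a log10 axis, with members ordered by their mean over 18 libraries. Each point is the mean of 3 libraries, open for water and filled for DSS. Fabp2 is highest at 982 CPM per kb over all libraries and Fabp1 lowest at 0.969.

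Under DSS, averaged with equal weight over the 3 genotypes, 6 members fell and 1 rose. Those that fell were Pdk4, Etfdh, Cpt1a, Acadm, Bdh1 and Hadha, and the one that rose was Eci1. Over all tested genes the same comparison called 15.9%, of which 6.72% were higher and 9.18% lower, so 23.3% of the members were called against 15.9% of all genes. The median log2 fold change of the 30 members was -0.10 and that of all tested genes 0.03. At an unadjusted p under 0.05, 11 of the 30 members were lower and 2 higher, and 32.2% of all genes passed in either direction. No member separated all 9 DSS libraries from all 9 water libraries, against 1.10% of all genes. The test was edgeR's quasi-likelihood test with Benjamini-Hochberg adjustment over all tested genes and a threshold of 0.05, and it gives every adjusted p below unless another tool is named. Without LAO1KO DSS C the count was 11 members, with Acads, Hadhb, Etfa and Ehhadh added, and in the other fits that left out a single library it was 6 to 8.

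**Figure D2:**
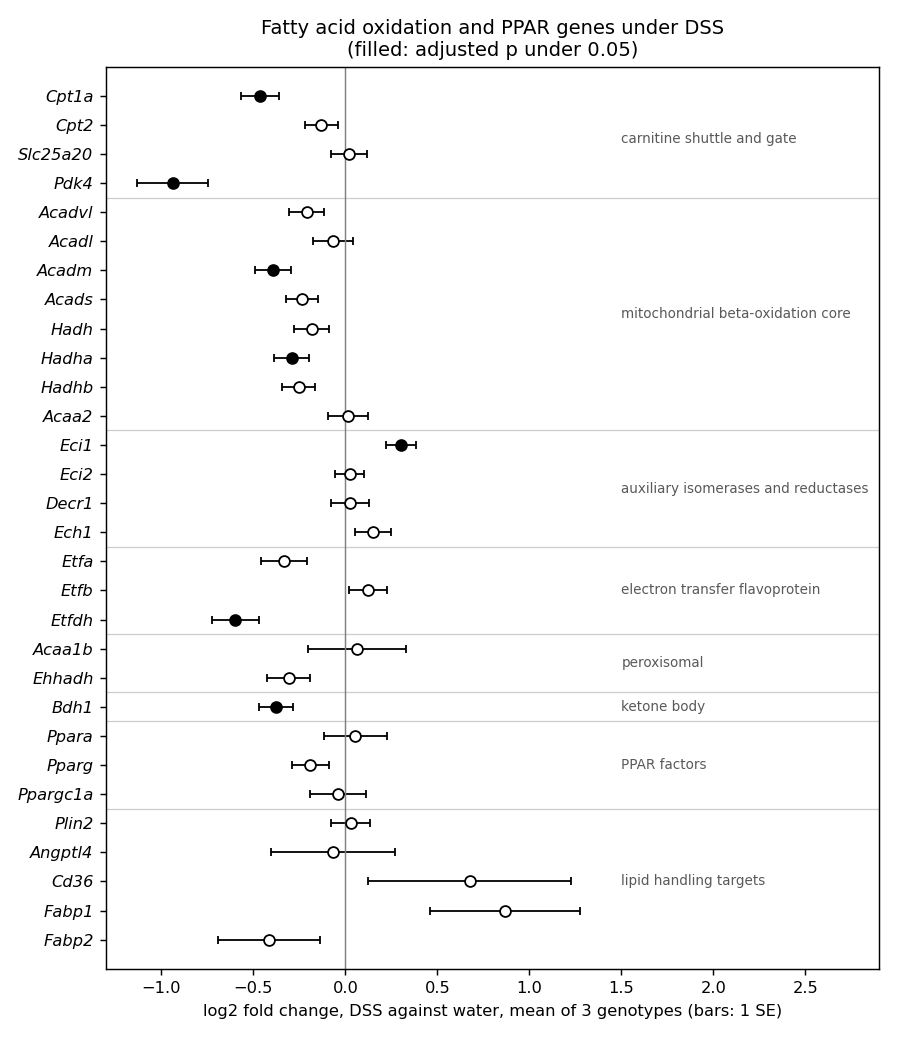
Log2 fold change under DSS of each member, averaged over 3 genotypes, with bars of 1 standard error from the edgeR fit and filled points for an adjusted p under 0.05. Genes are grouped by role. Pdk4 lies farthest to the left at -0.94, and Eci1 is the only filled point to the right of 0, at 0.30.

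The fuel gate and the entry step into mitochondria both fell. Pdk4 encodes pyruvate dehydrogenase kinase, which blocks the use of pyruvate and so leaves fatty acids as fuel. Pdk4 stood at 25.8 CPM in the lowest, 34.6 in the median and 53.9 in the highest of the 9 water libraries, and at 12.6, 19.4 and 27.2 CPM under DSS. Of the 9 DSS libraries 7 lay below every water library, and only WT DSS C and LAO1KO DSS C, at 26.6 and 27.2 CPM, lay above the lowest of them, WT water A. Pdk4 fell by 47.9%, a log2 fold change of -0.94 ± 0.19 (SE), with an adjusted p of 0.0051.

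Cpt1a encodes carnitine palmitoyltransferase 1A, which attaches carnitine to long-chain fatty acids at the outer mitochondrial membrane and is the rate-controlling step of entry. Cpt1a ran from 197 CPM over a median of 281 to 317 CPM under water, and from 157 over 193 to 239 CPM under DSS. The lowest water libraries were WT water B at 214 and LAO1KO water A at 197 CPM, and the other 7 water libraries lay above every DSS library. Cpt1a fell by 27.5%, a log2 fold change of -0.46 ± 0.10 (SE), with an adjusted p of 0.0068. The members of the shuttle behind it did not pass: Cpt2, the inner membrane transferase, had a log2 fold change of -0.13 ± 0.09 (adjusted p = 0.33), and Slc25a20, the carrier between them, 0.02 ± 0.10 (adjusted p = 0.92).

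The windows before the starts of Pdk4 and Cpt1a are shown because both are textbook PPAR targets that fell and stand at the gate of the pathway. They come from RefSeq on GRCm38.p6, run 5′ to 3′ on the gene's strand and stop at the first exon of the gene's basic transcript in GENCODE M21. Both lie outside the exons of their gene. A further GENCODE transcript of Cpt1a that is not in the basic set starts 717 bases before the window shown, which lies in its first intron. In Cpt1a the capitals mark 1 copy of the receptor repeat AGGTCA on the opposite strand.
Pdk4, chr6:5496310-5496528, minus strand: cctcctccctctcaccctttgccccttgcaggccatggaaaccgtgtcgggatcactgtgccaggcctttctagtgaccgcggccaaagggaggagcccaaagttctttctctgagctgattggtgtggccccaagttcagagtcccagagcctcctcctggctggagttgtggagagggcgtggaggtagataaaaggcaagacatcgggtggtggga
Cpt1a, chr19:3323051-3323284, plus strand: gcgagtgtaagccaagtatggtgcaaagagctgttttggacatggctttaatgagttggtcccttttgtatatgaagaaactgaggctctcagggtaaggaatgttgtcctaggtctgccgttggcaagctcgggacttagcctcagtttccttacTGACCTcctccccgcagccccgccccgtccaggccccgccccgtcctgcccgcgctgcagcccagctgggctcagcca
Neither window held the paired repeat that PPARs bind (AGGTCA, any 1 base, AGGTCA, read on either strand with up to 2 mismatches allowed), nor the clock motifs CACGTG or TTATGTAA. Introns and sequence farther upstream were not searched, so whether the repeat lies there is not known from these windows.

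RefSeq windows were given for 27 of the 30 members, some with more than 1 start, in 30 windows of 250 bases before the start. Angptl4, Decr1 and Acaa2 were not matched. Of the 30 windows, 4 held the paired repeat within 2 mismatches (in Cd36, Etfa, Fabp1 and Plin2), against 3.24% of all 32851 windows. None of these 4 genes was among the 7 members that changed, but sequence outside the windows was not searched. The single repeat AGGTCA, which can lie inside the paired one as it does in Fabp1 and Plin2, occurred in 8 of the 30 windows, against 14% of all windows. These belonged to 7 members (Acadm, Acadvl, Cd36, Cpt1a, Fabp1, Plin2 and Pparg). CACGTG and TTATGTAA occurred in 0 of the 30 windows, against 6.02% and 0.819% of all windows. The 4 paired repeats are given with up to 10 bases on each side, the repeat in capitals as it reads on the gene's strand.
Fabp1, chr6:71199802-71199826, plus strand, 1 mismatch: cgacaatcacTGACCTATGGCCTat
Cd36, chr5:17835937-17835969, minus strand, 2 mismatches: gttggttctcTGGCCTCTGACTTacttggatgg
Plin2, chr4:86670262-86670294, minus strand, 2 mismatches: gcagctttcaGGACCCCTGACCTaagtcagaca
Etfa, chr9:55512298-55512330, minus strand, 2 mismatches: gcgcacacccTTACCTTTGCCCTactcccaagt
All 4 read on the strand opposite to the gene, and begin 67 bases before the RefSeq start in Fabp1, 63 in Cd36, 225 in Plin2 and 77 in Etfa. The GENCODE starts can differ. Fabp1 starts at base 71199827 in GENCODE, just after the stretch shown. The Cd36 repeat lies inside its GENCODE gene model (chr5:17781690-17888801), before a RefSeq start within that model.

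In the beta-oxidation cycle 2 of 8 members fell, and 7 of 8 had a negative log2 fold change with a median of -0.22. Over all tested genes 9.18% passed as lower, and the median log2 fold change was 0.03. Acadm, the medium-chain acyl-CoA dehydrogenase, ran from 150 over 192 to 271 CPM under water and from 120 over 145 to 187 CPM under DSS. Its log2 fold change was -0.39 ± 0.10 (SE), with an adjusted p of 0.013, and 6 DSS libraries lay below every water library. Hadha, the alpha subunit of the trifunctional protein that carries out the later steps on long chains, ran from 178 over 202 to 278 CPM under water and from 133 over 174 to 232 CPM under DSS. Its log2 fold change of -0.29 ± 0.10 passed narrowly (adjusted p = 0.049), and of the 18 fits that left out a single library it passed in 6, those without WT water C, LAO1KO water A, WT DSS A, WT DSS B, LAO1KO DSS C or DKO DSS A. Its adjusted p reached 0.097 in the other fits. With WT water B and LAO1KO water A both left out, Hadha did not pass and Ehhadh did. Hadha was also lost with no filter on low counts.

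Hadhb, the beta subunit of the same complex, had a log2 fold change of -0.25 ± 0.09 (adjusted p = 0.057). Hadha (chr5:30118304-30155162, minus strand) and Hadhb (chr5:30155248-30184593, plus strand) are transcribed away from each other, with 86 bases between their GENCODE starts. Acads, the short-chain dehydrogenase, had -0.23 ± 0.09 (adjusted p = 0.074). The very-long-chain and long-chain dehydrogenases Acadvl and Acadl, the hydroxyacyl-CoA dehydrogenase Hadh and the thiolase Acaa2 lay between -0.21 and 0.01 with adjusted p from 0.13 to 0.95. Of these, Acadvl is uncertain because 42.9% of its exon bases overlap exons of Dvl2 on the other strand, and the strand setting of the counting is not stated.

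The auxiliary enzymes, which move or reduce double bonds of unsaturated fatty acids so that the cycle can go on, lay at or above 0. Eci1, an enoyl-CoA delta isomerase, ran from 39.1 over 53.8 to 62.8 CPM under water and from 51.4 over 69.5 to 79.2 CPM under DSS. It rose with a log2 fold change of 0.30 ± 0.08 (SE), an increase of 23.4%, with an adjusted p of 0.021, and 6 DSS libraries lay above every water library. Eci2, Decr1 and Ech1 had log2 fold changes of 0.02, 0.02 and 0.15 with adjusted p of 0.87, 0.90 and 0.31.

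Etfdh, the ubiquinone oxidoreductase that passes electrons from the acyl-CoA dehydrogenases to the respiratory chain, fell by 34.0%, a log2 fold change of -0.60 ± 0.13 (SE), with an adjusted p of 0.0058. Etfdh ran from 64.6 over 77.1 to 93.9 CPM under water and from 32.0 over 51.4 to 69.6 CPM under DSS. Of the DSS libraries 8 lay below every water library, and only LAO1KO DSS C overlapped them. The subunits of the electron transfer flavoprotein upstream of it moved apart in their estimates, Etfa at -0.33 ± 0.13 (adjusted p = 0.079) and Etfb at 0.12 ± 0.10 (adjusted p = 0.43). The difference between the subunits was not tested, and 53.0% of the exon bases of Etfb are shared with the same-strand gene model Gm45233.

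Bdh1, the mitochondrial 3-hydroxybutyrate dehydrogenase that interconverts ketone bodies, fell with a log2 fold change of -0.38 ± 0.09 (SE) and an adjusted p of 0.012. It ran from 115 over 137 to 189 CPM under water and from 91.7 over 109 to 124 CPM under DSS, and the DSS range ended below 6 of the 9 water libraries. An antisense gene model, Gm15743, overlaps 13.7% of its exon bases. In the peroxisome, where very long chains are shortened, Ehhadh ran from 31.8 over 50.6 to 61.4 CPM under water and from 29.8 over 40.5 to 50.9 CPM under DSS, with a log2 fold change of -0.31 ± 0.12 that did not pass (adjusted p = 0.081). Acaa1b, a peroxisomal thiolase, ran from 7.62 over 44.2 to 57.1 CPM under water and from 29.99 over 36.1 to 65.6 CPM under DSS, with a log2 fold change of 0.06 ± 0.27 (adjusted p = 0.89). The low value of 7.62 CPM belonged to WT water B, and reads of Acaa1b may be shared with its close copy Acaa1a and, over 11.4% of its exon bases, with Dlec1.

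**Figure D3:**
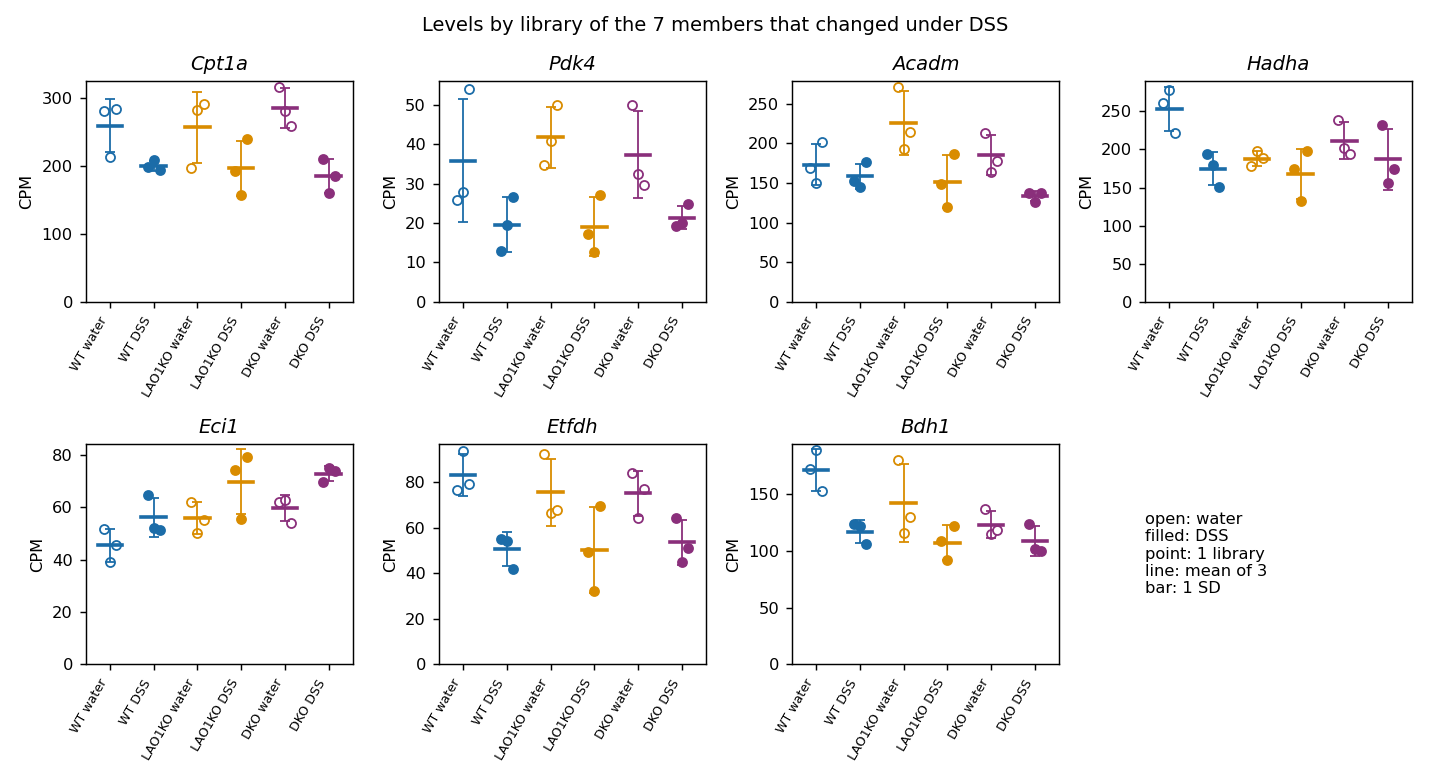
Level in CPM of the 7 members that changed under DSS, by group. Each point is 1 library, open for water and filled for DSS, with the line at the mean and the bar at 1 SD of 3 libraries. Pdk4 lies between 12.6 and 27.2 CPM under DSS against 25.8 to 53.9 CPM under water, and Eci1 is the panel in which the DSS points are the higher ones.

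The receptors and their coactivator did not pass. Ppara, the receptor that acts on oxidation genes, ran from 27.6 over 64.1 to 80.7 CPM under water and from 50.1 over 64.3 to 76.9 CPM under DSS, and its log2 fold change was 0.05 with a 95% confidence interval of -0.28 to 0.39. Pparg, the receptor that is prominent in colonocytes and fat cells, ran from 55.4 over 67.5 to 83.7 CPM and from 46.4 over 62.8 to 72.3 CPM, with a log2 fold change of -0.19 and an interval of -0.39 to 0.01. Ppargc1a, a coactivator of mitochondrial genes, ran from 18.6 over 34.4 to 49.1 CPM and from 27.5 over 33.6 to 43.4 CPM, with a log2 fold change of -0.04 and an interval of -0.34 to 0.26. For all 3 the water range was wider than the DSS range, and for Ppara and Ppargc1a its low end came from WT water B and LAO1KO water A.

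The 5 lipid handling genes did not pass either. Plin2, which coats lipid droplets, ran from 63.9 over 82.8 to 91.5 CPM under water and from 56.6 over 84.8 to 103 CPM under DSS, with a log2 fold change of 0.03 ± 0.10 (adjusted p = 0.88). Angptl4, a secreted inhibitor of lipoprotein lipase and a strong PPAR target, ran from 4.46 over 12.6 to 22.8 CPM and from 6.53 over 10.4 to 26.1 CPM, with -0.07 ± 0.34 (adjusted p = 0.91). Fabp2 ran from 549 over 772 to 2512 CPM and from 592 over 832 to 1432 CPM, with -0.42 ± 0.28 (adjusted p = 0.32).
The highest Fabp2 value, 2512 CPM, was that of LAO1KO water A, and WT water B came second with 1467 CPM. Fabp1 ran from 0.128 over 0.222 to 0.835 CPM and from 0.294 over 0.465 to 1.80 CPM, with 0.87 ± 0.41 (adjusted p = 0.15). Without WT water A, which held the highest water value, Fabp1 passed in this average. Markers of small-intestinal absorptive cells, which express both binding proteins, are given beside them. Of these 4 of 12 passed as higher, beside 6.72% of all genes, and 0 as lower. Their mean log2 CPM was 2.27 to 4.16 under water and 3.45 to 4.95 under DSS, and Lct was at 0 in 1 library. Their part in the Fabp values was not tested.

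Cd36, a fatty acid transporter of fat cells, macrophages and endothelium, showed the widest range of all members. Under water it stood at 7.71, 15.4 and 44.6 CPM in WT, at 24.9, 50.2 and 6.47 CPM in LAO1KO and at 8.49, 7.38 and 12.6 CPM in DKO (libraries A to C). Under DSS it stood at 5.41, 17.5 and 32.5 CPM in WT, at 107, 9.51 and 109 CPM in LAO1KO and at 18.0, 7.68 and 26.1 CPM in DKO. Only LAO1KO DSS A and C stood above every water library, and LAO1KO DSS B lay among the low ones, so the log2 fold change of 0.68 ± 0.55 did not pass (adjusted p = 0.43).

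Cd36 moved with adipocyte markers from library to library. The 12 markers had a mean log2 CPM of 0.14 to 5.15 under water and 0.56 to 6.10 under DSS, 0 of 12 passed the DSS test, and Adipoq, Plin1, Lep, Retn and Cfd were at 0 in at least 1 library. Over the 18 libraries the log2 level of Cd36 had a Pearson r of 0.94 and a Spearman rho of 0.97 with that mean, each with a permutation p of 1e-05, the smallest that the resampling could give (adjusted p = 0.0003 and 0.0006 over the 60 relations computed). Without the 2 libraries farthest from the median of the marker mean r was 0.95, and within water and within DSS, 9 libraries each, it was 0.94 and 0.94. Angptl4 and Plin2, which fat cells also express, had r of 0.46 (rho 0.45) and 0.32 (rho 0.42), with permutation p adjusted over the same 60 relations of 0.17 and 0.55 for r, and r of 0.65 and 0.45 without the same 2 libraries. The mean of 8 endothelial markers was 2.41 to 2.998 under water and 2.13 to 3.65 under DSS, and its highest libraries were also LAO1KO DSS C (3.65) and LAO1KO DSS A (3.30). The mean of 8 macrophage markers was 2.13 to 2.80 and 2.07 to 2.79. Of both lists 0 markers passed the DSS test in edgeR. At an unadjusted p under 0.05 there were 2 and 3, beside 32.2% of all genes. None of these markers was at 0 in any library, and their part in the Cd36 values was not tested.

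The same comparison with the mean of 10 epithelial markers gave 9 positive relations and 1 negative with an adjusted permutation p under 0.05 for Pearson's r. These relations were computed for the 30 members only. No share over all genes stands beside the counts, so they cannot be read as particular to the members. Pparg had r of 0.88 and rho of 0.82 (adjusted permutation p = 0.0003 and 0.0018), and r of 0.83 without the libraries LAO1KO water A and WT water B, which were the farthest from the median. Within water r was 0.87 and within DSS 0.94. Etfa (r 0.83, rho 0.63), Acadvl (0.80, 0.69), Bdh1 (0.79, 0.75), Fabp2 (0.77, 0.75), Cpt2 (0.77, 0.76), Acads (0.70, 0.63), Etfdh (0.67, 0.55) and Acadl (0.64, 0.54) were the other positive ones, with adjusted permutation p for r from 0.0004 to 0.022. Within water r of these 9 genes ran from 0.52 to 0.88 and within DSS from 0.50 to 0.94. Without LAO1KO water A and WT water B it ran from 0.50 to 0.83, as Fabp2 dropped to r of 0.50, Etfdh to 0.52, while the negative relation of Ppargc1a went from -0.66 (rho -0.57) to -0.33 and so rests on them. For Etfdh, Acadl and Ppargc1a rho did not pass, with adjusted p from 0.082 to 0.099. The epithelial mean was 9.80 to 10.7 under water and 9.58 to 10.2 under DSS. Of its 10 markers 2 passed as lower, beside 9.18% of all genes, and 0 as higher, and none was at 0 in any library. Its part in the DSS falls of Bdh1 and Etfdh was not tested.

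**Figure D4:**
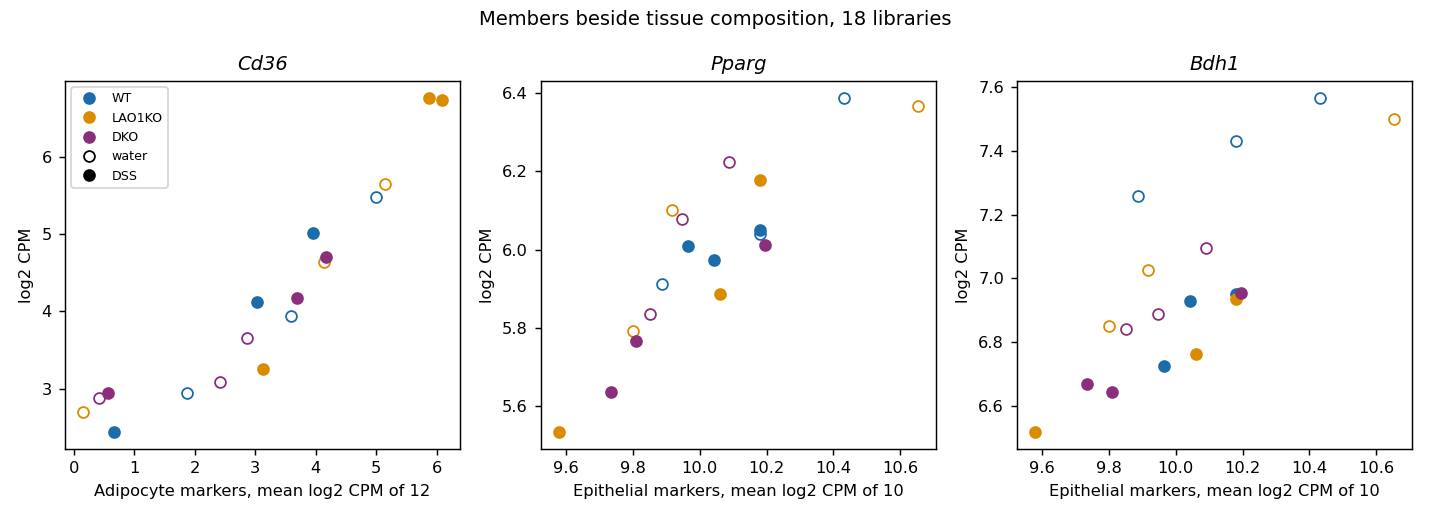
Log2 CPM of Cd36 against the mean log2 CPM of 12 adipocyte markers, and of Pparg and Bdh1 against that of 10 epithelial markers, in 18 libraries. Colours give the genotype, open points water and filled points DSS. Cd36 rises with the adipocyte mean under water and under DSS (r of 0.94 in each), and the 2 rightmost points of the other panels are LAO1KO water A and WT water B.

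In WT alone DSS called 12.9% of all genes, 6.29% as higher and 6.59% as lower, and 13.3% of the members: Slc25a20 rose, and Bdh1, Hadha and Etfdh fell. Slc25a20, the carnitine-acylcarnitine carrier of the inner membrane, stood at 184, 138 and 215 CPM in WT water A to C and at 266, 228 and 303 CPM in WT DSS A to C. All 3 DSS values lay above all 3 water values, and the log2 fold change was 0.57 ± 0.17 (SE, adjusted p = 0.039). Bdh1 stood at 172, 189 and 153 CPM against 124, 122 and 106 CPM, with -0.55 ± 0.16 (adjusted p = 0.033). Hadha stood at 261, 278 and 221 CPM against 193, 180 and 151 CPM, with -0.54 ± 0.17 (adjusted p = 0.045).
Etfdh stood at 76.9, 93.9 and 79.1 CPM against 55.3, 54.4 and 42.0 CPM, with -0.72 ± 0.22 (adjusted p = 0.042). For these 3 genes too the WT groups did not overlap. The calls were fragile: 0 members passed without WT water B and 0 without WT DSS C, 2 without WT DSS A (Bdh1 and Hadha), and without WT water A the only one was Fabp1. Leaving out WT water B also lowered the count over all genes from 2428 to 777. Pdk4 had -0.88 ± 0.33 (adjusted p = 0.093) and Cpt1a -0.38 ± 0.18 (adjusted p = 0.16) in WT. At an unadjusted p under 0.05, 5 members were lower and 2 higher in WT, beside 29.5% of all genes. With the replicate letter as a block within each genotype 6 members passed in WT, the same 4 with Pdk4 (lower) and Acaa1b (higher). In LAO1KO the same block called Pdk4 as lower.

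In LAO1KO and in DKO no member passed, where 0.196% and 0.0159% of all genes were called. At an unadjusted p under 0.05, LAO1KO had 6 lower members and 1 higher beside 15.6% of all genes, and DKO 4 lower and 0 higher beside 9.59% of all genes. DESeq2 called Pdk4 and Acadm as lower in LAO1KO and Cpt1a as lower in DKO. In LAO1KO the smallest adjusted p belonged to Acadm (-0.57 ± 0.17, adjusted p = 0.14) and Pdk4 (-1.13 ± 0.33, adjusted p = 0.14), and without LAO1KO DSS C these and Etfdh passed. Acadm stood at 271, 192 and 214 CPM in LAO1KO water A to C and at 148, 120 and 187 CPM in LAO1KO DSS A to C. In DKO the smallest was that of Cpt1a, with 317, 281 and 259 CPM in DKO water A to C and 210, 160 and 185 CPM in DKO DSS A to C (-0.63 ± 0.18, adjusted p = 0.25). For Acadm and Pdk4 in LAO1KO and for Cpt1a in DKO all 3 DSS libraries lay below all 3 water libraries.

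The genotypes were compared by the direction of their DSS responses, which share no libraries. The estimate was negative in all 3 genotypes for 12 members: Cpt1a, Pdk4, Acadvl, Acadm, Acads, Hadha, Hadhb, Etfa, Etfdh, Ehhadh, Bdh1 and Pparg. Over all tested genes 21.5% had that pattern. It was positive in all 3 for Eci1, Ech1 and Fabp1, against 23.7% of all genes. For 10 members, Cpt2, Slc25a20, Acadl, Hadh, Acaa2, Decr1, Acaa1b, Ppargc1a, Plin2 and Fabp2, it was positive in WT and negative in both knockouts, against 11.9% of all genes, and the other 5 had mixed signs. Signs in this pattern can rest on the 2 libraries that stand apart. Hadh stood at 401, 297 and 436 CPM in WT water A to C and at 370, 335 and 448 CPM in WT DSS. Fabp2 stood at 2512, 549 and 631 CPM in LAO1KO water A to C and at 605, 605 and 872 CPM in LAO1KO DSS. Slc25a20 in WT kept a positive estimate without WT water B (0.41). The pattern was not counted again without WT water B and LAO1KO water A.

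**Figure D5:**
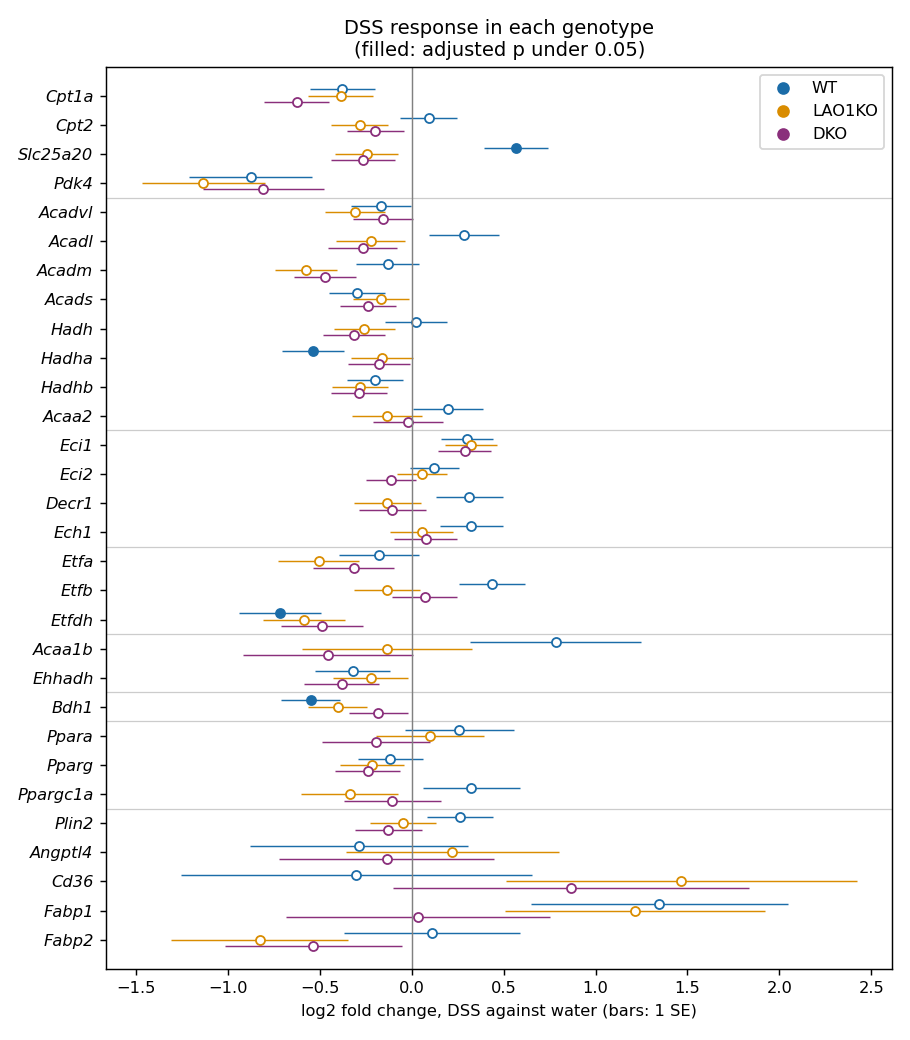
Log2 fold change under DSS of each member in WT, LAO1KO and DKO, with bars of 1 standard error and filled points for an adjusted p under 0.05. The 4 filled points are all WT: Slc25a20 at 0.57, Hadha at -0.54, Etfdh at -0.72 and Bdh1 at -0.55.

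The difference between the responses was tested directly, and no member passed. The interactions called 0% of all genes for LAO1KO against WT and 0.0584% for DKO against WT, and both use the same WT libraries. Slc25a20 had the smallest adjusted p in each: its DSS response was lower by 0.81 ± 0.24 on the log2 scale in LAO1KO (interval -1.29 to -0.33, adjusted p = 0.15) and lower by 0.83 ± 0.24 in DKO (interval -1.31 to -0.35, adjusted p = 0.14). Unlike the adjusted p, both intervals take no account of the number of genes tested. Under DSS Slc25a20 stood at 182, 169 and 242 CPM in LAO1KO and at 215, 205 and 212 CPM in DKO, against 230, 212 and 262 CPM and 294, 230 and 236 CPM under water. At an unadjusted p under 0.05 the interactions held 2 members for LAO1KO (Slc25a20 and Etfb) and 1 for DKO (Slc25a20), all lower, beside 15.9% and 15.4% of all genes. DESeq2 called Slc25a20 in both, and with the letter as a block within each genotype it passed in the DKO interaction.

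Transcript length was set beside the responses as a description. Spearman's rho between transcript length and the DSS log2 fold change in WT was -0.58 over the 30 members and -0.30 over 17197 genes with a length, which are not independent replicates. In LAO1KO it was -0.22 over the members and 0.06 over all genes, and in DKO -0.19 and -0.07. Averaged over the genotypes it was -0.38 and -0.16. The part of length in the calls was not tested.

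Loss of Lao1, or of Lao1 and Il4i1, changed no member past the threshold in any comparison. LAO1KO against WT called 0.0531% of all genes under water and 0.0849% under DSS, DKO against WT 0.621% and 0.255%, and DKO against LAO1KO, averaged over the treatments, 0.239%. At an unadjusted p under 0.05, 3 members differed between LAO1KO and WT under water and 2 under DSS, beside 14.3% and 6.02% of all genes. Between DKO and WT 3 differed under water and 3 under DSS, beside 17.3% and 9.69%, and 2 between DKO and LAO1KO, beside 7.21%. The comparisons with WT share its libraries. DESeq2 called Bdh1 as lower in DKO under water, and limma voom with sample weights called Slc25a20 as lower in LAO1KO under DSS and Ech1 as lower in DKO against WT under DSS and against LAO1KO.

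The genotype estimates nearest to the threshold belonged to 5 genes. Under water Bdh1 stood at 172, 189 and 153 CPM in WT and at 137, 115 and 118 CPM in DKO, a log2 difference of -0.48 ± 0.16 (adjusted p = 0.15). Slc25a20 was 0.50 ± 0.17 higher in DKO (adjusted p = 0.16) and 0.39 ± 0.17 higher in LAO1KO (adjusted p = 0.32), and Eci1 was 0.39 ± 0.14 higher in DKO (adjusted p = 0.18). Hadha was 0.43 ± 0.17 lower in LAO1KO (log2 difference -0.43, adjusted p = 0.27), at 178, 198 and 188 CPM against 261, 278 and 221 CPM.
Ech1, the auxiliary dienoyl-CoA isomerase, stood at 341, 260 and 336 CPM in WT DSS, at 269, 219 and 341 CPM in LAO1KO DSS and at 218, 194 and 204 CPM in DKO DSS. The DKO DSS libraries lay below all other DSS libraries, with a log2 difference from WT under DSS of -0.61 ± 0.17 (adjusted p = 0.26). From LAO1KO, averaged over the treatments, the log2 difference of DKO was -0.44 ± 0.12 (adjusted p = 0.34). None of these passed, and the intervals still include sizeable differences, such as -0.94 to -0.27 for Ech1 in DKO under DSS. The intervals are not adjusted for the number of genes tested, and these genes were named for being near the threshold. An interval clear of no change is therefore not a pass.

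The rest of the pathway was described by a list of 71 further genes of fatty acid activation, transport, peroxisomal oxidation, ketone bodies, short-chain fatty acid uptake and PPAR regulation, of which 68 were tested. Under DSS, averaged over the genotypes, 17 fell and 0 rose, or 25.0% against the 15.9% of all genes, and their median log2 fold change was -0.17. The count without 1 library ran from 11, without LAO1KO DSS A or without DKO DSS C, to 25, without LAO1KO DSS C. Under the other alternatives it was 15 to 31, the highest with voom, which called 6224 of all genes. The 6 with the smallest p were Cyp4f14, Acss1, Acad11, Slc5a8, Abcd3 and Rxrb, and these passed in all 18 fits that left out a single library.

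Acss1, the mitochondrial acetyl-CoA synthetase that activates acetate, stood at 124, 117 and 120 CPM in WT water, 104, 109 and 126 CPM in LAO1KO water and 105, 94.5 and 89.7 CPM in DKO water. Under DSS it stood at 67.9, 69.2 and 71.3 CPM in WT, 74.8, 70.5 and 71.5 CPM in LAO1KO and 78.3, 67.5 and 70.6 CPM in DKO. The DSS libraries all lay below the water libraries, and the log2 fold change was -0.62 ± 0.06 (SE, adjusted p = 2.37e-05).
Slc5a8, the sodium-coupled transporter of butyrate and other monocarboxylates in colonocytes, and Acad11, an acyl-CoA dehydrogenase, likewise separated all 9 DSS from all 9 water libraries, as did 0.918% of all genes in the same direction. Slc5a8 had a log2 fold change of -0.50 ± 0.07 (adjusted p = 0.00044) and Acad11 -0.61 ± 0.08 (adjusted p = 0.00026). Cyp4f14, a fatty acid omega-hydroxylase, had -0.64 ± 0.08 (adjusted p = 0.00017), Abcd3, a peroxisomal fatty acid transporter, -0.58 ± 0.10 (adjusted p = 0.0014), and Rxrb, a retinoid X receptor, -0.32 ± 0.07 (adjusted p = 0.0053).

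Among the others of that list that fell were Acsl3, Acsl5, Slc27a4, Acox3, Hsd17b4, Acad12, Mlycd, Ppard, Rxra and Slc16a1. Slc16a1, a monocarboxylate transporter, had a log2 fold change of -0.55 ± 0.18 (adjusted p = 0.043). Slc16a1 passed in 8 of the 18 fits without 1 library, and did not pass with both WT water B and LAO1KO water A left out, with no filter on low counts or with the replicate letter as a block. Rxra passed in 5, Mlycd in 7, and Hsd17b4 and Ppard in 10 each of those 18 fits. Mlycd was also lost with no filter, without those 2 libraries and, like Ppard, with the letter as a block within each genotype. Acsl3, Acsl5, Slc27a4, Acox3 and Acad12 passed in all 18.
Acaa1a, a peroxisomal thiolase, had a log2 fold change of 0.03 ± 0.09 and did not pass (adjusted p = 0.87). In WT alone Acss1, Ppargc1b, Rxrb and Ncor1 fell, in LAO1KO Cyp4f14, Acss1 and Acad11, and in DKO none. Over all genes LAO1KO called 0.191% as lower. The WT count was 2 without WT water A or WT DSS C, and the LAO1KO count was 0 without LAO1KO water C, LAO1KO DSS A or LAO1KO DSS B and 6 without LAO1KO DSS C. Under the other alternatives the count was 2 to 11 in WT, 0 to 30 in LAO1KO and 0 to 11 in DKO, with DESeq2 at 11, 6 and 6, voom at 10, 30 and 11, and a fit of only the groups compared at 2, 0 and 2.

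Other lists moved in the same comparison, in which 9.18% of all genes passed as lower and 6.72% as higher. Of 27 nuclear-encoded genes of the respiratory chain and citrate cycle 7 passed as lower and 0 as higher, with a median log2 fold change of -0.21. Of 10 colonocyte markers 4 passed as lower and 0 as higher, with a mean log2 CPM of 7.84 to 9.14 under water and 7.62 to 9.14 under DSS. All 9 enteric neuron and glia markers passed as higher, with a mean log2 CPM of 2.89 to 4.12 under water and 3.69 to 4.69 under DSS. None of the colonocyte or the neuron and glia markers was at 0 in any library. Their part in the falls of the oxidation genes was not tested. With the mitochondrially encoded mRNAs removed before scaling the same 7 members were called.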

How the data were processed

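Whole-colon RNA libraries were stranded and sequenced as read pairs, per the labels' protocols. The authors deposited 1 table of raw read counts, whole numbers per gene symbol and library, and columns of other samples numbered 0. The builds GRCm38 and mm10 and the tools DESeq2 1.42.1, R 4.3.2, HISAT2 2.1.0, Trimmomatic 0.38, StringTie 2.1.3b and FastQC 0.11.7 are listed, with no roles, in the submitters' processing notes. How strand, overlaps and multiply mapped reads were counted is not given in the sources used here.

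The deposited counts were fitted with edgeR 4.0.16 in R 4.3.3. Low genes were dropped by filterByExpr, libraries were scaled with TMM factors, and robust quasi-likelihood fits with 1 mean per group used all 18 libraries. The 11 comparisons were contrasts of group means, each adjusted over all 18848 genes. CPM values use the TMM factors. SE is the absolute log2 fold change over the square root of F. The script was tested on simulated data. Relations with marker means were tested with 100000 random pairings, 2-sided. Positions and lengths came from GENCODE M21 and promoter windows from RefSeq, both on GRCm38.

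The members and lists were chosen with earlier results of these data known. All 30 members are named. Of the other pathway genes Acaa1a and Slc16a1 and up to 6 of those that passed with the smallest p are described, and others that passed are only named. Some genes of that list are counted but not reported here by name. Alternatives were RLE scaling, removal of mitochondrially encoded mRNAs, no filter, DESeq2 1.42.0, voom with sample weights in limma 3.58.1, only the groups compared, the replicate letter as a block, and each library left out. The labels give no meaning to the letters. Deviations of same-letter water and DSS libraries correlated above 0.1 in 3 of 3 pairs in WT (0.17 to 0.22). In LAO1KO this held for 0 of 3 pairs and in DKO for 2 of 3 (0.07 to 0.26 over the 3 pairs). The main fit did not pair libraries, and the letter entered only as a block in the alternatives. Leaving out WT water B and LAO1KO water A together, the letter as a block within each genotype, and every alternative for the other pathway genes, were added after the data were seen. No pair of replicates agreed within sampling noise. Nothing in the labels says more than that replicates are biological.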

Additional observations from a re-analysis of the deposited data

How the results depend on the processing

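Pdk4, Etfdh, Cpt1a, Acadm, Bdh1 and Eci1 passed, in the same direction, in all 18 fits of the averaged DSS comparison that left out a single library and under all 8 other alternatives. No estimate of a member or other pathway gene that passed changed sign. The count of members in that comparison was 7, was 12 with limma voom and sample weights, and ran from 6 to 11 without 1 library. In WT the count was 4, was 7 with voom, 2 in a fit of only the WT groups and 2 (Ehhadh and Bdh1) without WT water B and LAO1KO water A, and ran from 0 to 3 without 1 library. In LAO1KO the count was 0, was 2 with DESeq2 and 9 with voom, and ran from 0 to 3 without 1 library. In DKO it was 0, and 1 with DESeq2 and with voom. Voom also called 1 member in LAO1KO against WT under DSS, 1 in DKO against WT under DSS, 1 in DKO against LAO1KO and 2 in the LAO1KO interaction (Slc25a20 and Ppargc1a). DESeq2 called 1 in DKO against WT under water and 1 in each interaction. The cause of these differences was not tested. The fits that leave libraries out also hold fewer samples, and the part of that was not tested either.

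Over all genes the averaged comparison called 2996, and 6224 with voom. DSS in WT called 2428, 1083 in a fit of only those groups, and 777 without WT water B. DSS in LAO1KO called 37, 701 with DESeq2, 5029 with voom and 0 in a fit of only those groups.

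The replicate letter as a block gave 9 members in the averaged DSS comparison, adding Acads and Hadhb, and changed no other count of members. As a block within each genotype the letter gave 10 members in the averaged comparison, adding Acads, Hadhb and Etfa, 6 in WT, 1 in LAO1KO (Pdk4), 0 in DKO, 0 in the LAO1KO interaction and 1 in the DKO interaction (Slc25a20). Of 45 same-letter pairs over all groups 13 had a correlation of deviations over 0.1 (-0.30 to 0.32), and 10 of 18 libraries correlated best with their own letter, a hint from the data and not from the labels. At these depths Fabp1, with 4 to 47 counts, is the member limited by counting.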
